A study of Mus musculus with 14 samples.

Results

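The 10 genes described here are markers of the mesothelium and of the ovarian lineages: Wt1, Gata4, Gata6, Tbx2, Tbx3, Pax8 and Foxl2, which encode transcription factors, and Msln, Upk3b and Muc16, which encode cell surface proteins. They were taken by gene symbol from a table of 35275 mouse genes, and all 10 were found. The table holds the RNA sequencing of 14 samples of murine ovarian cancer cells of C57Bl6 origin, each grown without anchorage as tumorspheres in serum-free PromoCell XF medium for 5 days. KMF cells (n = 3) are the parental line, obtained from ID8 mouse ovarian epithelial cells by passage in mice. FAK KO cells (n = 3) are KT13, a single clone of KMF in which CRISPR editing inactivated the gene of focal adhesion kinase (FAK, encoded by Ptk2). The other lines were all made from KT13 and so share its FAK knockout: FAK-WT cells (n = 3) re-express GFP-tagged FAK, FAK-R454 cells (n = 2) re-express GFP-tagged FAK with a mutation that abolishes its kinase activity, both by lentivirus, and β-catenin ΔGSK cells (n = 3) carry a retroviral β-catenin that lacks its GSK3 phosphorylation sites. The design asks which expression differences follow FAK, which of these need FAK kinase activity, and which active β-catenin brings about without FAK.

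The ovarian surface is covered by a single layer of mesothelium that arises from the coelomic epithelium, the same embryonic layer that contributes supporting cells to the gonad. WT1, GATA4 and GATA6 are transcription factors of that layer and of the gonads, mesothelin (Msln) and uroplakin 3b (Upk3b) mark the mesothelial surface, and T-box factors such as TBX2 and TBX3 repress transcription in many developing organs. PAX8 marks the Müllerian epithelium of the oviduct and most human serous ovarian carcinomas, MUC16 carries the CA125 epitope used to follow that disease, and FOXL2 maintains granulosa cell identity in the ovary.

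Levels are given as FPKM, the fragments counted per length of gene and per depth of library, which allows genes to be compared per length. The libraries held 25390558 to 35289859 fragments assigned to genes. Differences between lines were tested with limma on the log2(FPKM + 0.1) scale over all genes with a mean above 1 FPKM in at least 1 of the lines compared, and p-values were adjusted over all those genes. A call needed an adjusted p below 0.05, a log2 difference of 1 or more in either direction and a mean above 1 FPKM in the higher line, and a gene that met only the first condition is said to pass at any fold. On the log2 scale, Ptk2 exceeded its FAK KO level by 1.19 in FAK-WT and 1.71 in FAK-R454 cells, and Ctnnb1, which encodes β-catenin, was 0.57 higher in β-catenin ΔGSK cells. In KMF cells Ptk2 was only 0.36 higher than in the FAK KO clone (24.3 against 19.0 FPKM), so the transcript was still present in the clone. KMF cells also had more Ctnnb1 than the FAK KO clone, by 0.47 (adjusted p = 3.50e-04 by limma). Between β-catenin ΔGSK and KMF cells it did not pass the test (0.10, adjusted p = 0.228), so its level does not mark the construct alone. Every library was more like the others of its own line than like any library of another line. The samples are replicate RNA preparations of 1 cell line each, so the tests measure the spread between preparations and not between independently made lines. In bulk RNA, fewer cells of a kind and less RNA per cell cannot be told apart.

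Of the 10 genes, 6 were above 1 FPKM in all 5 lines and 4 were below 1 FPKM in all 5. Wt1, Gata4, Gata6 and Msln were among the abundant transcripts. In FAK KO cells Wt1 was higher than 93.7% of the 11559 genes above 1 FPKM, Gata4 higher than 92.4%, Msln than 90.8%, Gata6 than 88.1%, Tbx2 than 72.9% and Upk3b than 21.3%. The highest line mean exceeded the lowest by 7.84-fold for Upk3b, 3.40-fold for Tbx2, 2.54-fold for Wt1, 2.03-fold for Msln, 1.86-fold for Gata4 and 1.34-fold for Gata6. Pax8, Muc16, Tbx3 and Foxl2 did not pass the filter on low values and were given no test.

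**Figure D1:**
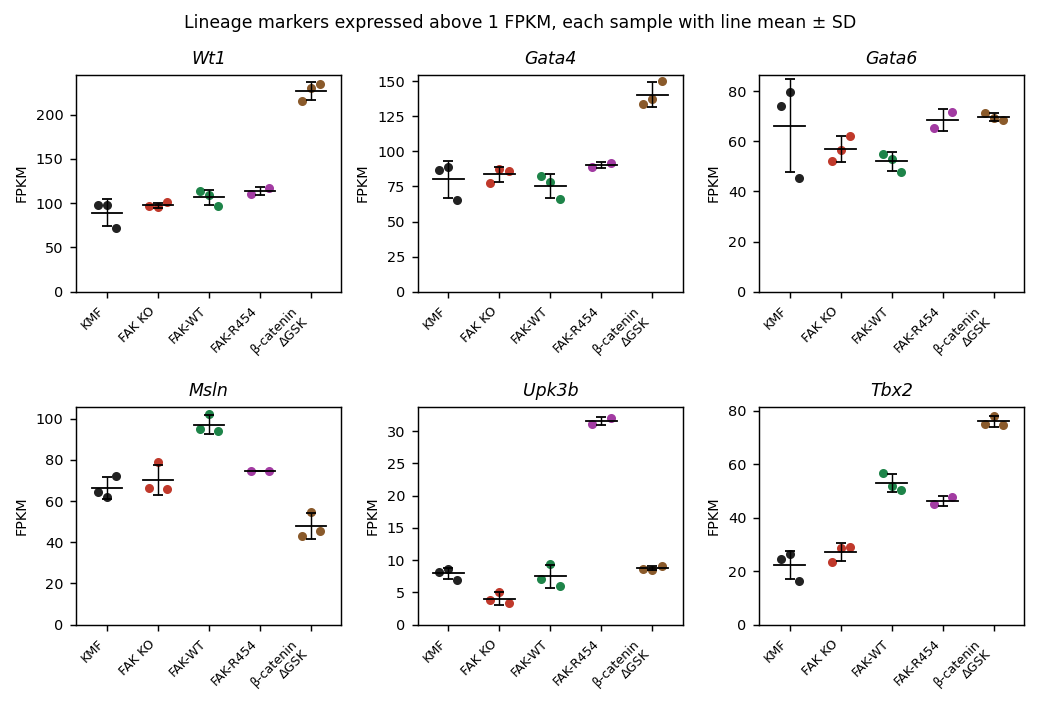
FPKM (y axis, linear, from 0) of the 6 expressed lineage markers in each of the 5 lines (x axis). Points are samples, horizontal bars are line means and error bars are SD (n = 3, n = 2 for FAK-R454). Wt1, Gata4 and Tbx2 are highest in β-catenin ΔGSK cells, Msln in FAK-WT cells and Upk3b in FAK-R454 cells, and Gata6 differs least between lines.

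Wt1 (ENSMUSG00000016458, chromosome 2, 105126529 to 105173616, plus strand, GRCm38) encodes a zinc finger factor needed for the formation of the gonads and of visceral mesothelium. Its level in the 3 samples was 98.5, 97.9 and 71.7 FPKM in KMF cells, 96.3, 96.2 and 101 FPKM in the FAK KO clone and 113, 109.7 and 97.1 FPKM in FAK-WT cells. It was 111 and 117 FPKM in FAK-R454 cells and 215, 230 and 235 FPKM in β-catenin ΔGSK cells. All 3 β-catenin ΔGSK samples lay above every other sample, while the remaining lines lay close together. Wt1 was 2.32-fold higher in β-catenin ΔGSK than in FAK KO cells (log2 fold change 1.21, standard error 0.06, adjusted p = 8.86e-07 from limma). It was 2.56-fold higher than in KMF cells (log2 1.36, standard error 0.12, adjusted p = 1.89e-05) and 2.13-fold higher than in FAK-WT cells (log2 1.09, standard error 0.08, adjusted p = 1.11e-05). The other 4 lines fell in the order KMF, FAK KO, FAK-WT and FAK-R454, with means of 89.4 ± 15.3, 97.8 ± 2.71, 107 ± 8.54 and 114 ± 4.24 FPKM (SD), and no pair of neighbours in that order passed the limma test (adjusted p = 0.323, 0.202 and 0.470). The step from FAK KO to FAK-WT passed with chromosomes centred on their medians (log2 0.29, adjusted p = 0.0168) or without FAK-WT sample 3 (0.19, adjusted p = 0.0331). The step from FAK KO to FAK-R454 passed at a log2 difference of 0.22 (adjusted p = 0.0412 from limma), and it did not pass in the fit of all 5 lines (adjusted p = 0.1999) or when either FAK-R454 sample was left out (log2 0.26 and 0.18, adjusted p = 0.193 and 0.307). In this and other fits with a single FAK-R454 sample, that sample is assumed to vary as the other line does.

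Gata4 (ENSMUSG00000021944, chromosome 14, 63198922 to 63271692, minus strand) and Gata6 (ENSMUSG00000005836, chromosome 18, 11052510 to 11085635, plus strand) encode zinc finger factors that act together in the gonad, and GATA4 is needed for the genital ridge to form. Gata4 measured 86.7, 88.9 and 65.1 FPKM in KMF, 77.1, 87.4 and 86.1 FPKM in the FAK KO clone and 82.4, 77.9 and 65.7 FPKM in FAK-WT cells. In FAK-R454 cells it measured 88.6 and 92.0 FPKM, and in β-catenin ΔGSK cells 134, 137 and 150 FPKM. As for Wt1, the β-catenin ΔGSK samples lay above all others. Gata4 was 1.68-fold higher in β-catenin ΔGSK than in FAK KO cells (log2 0.75, standard error 0.07, adjusted p = 4.76e-05 from limma), which is under the 2-fold threshold of a call. No neighbours among FAK-WT (75.3 ± 8.61 FPKM), KMF (80.2 ± 13.1), FAK KO (83.5 ± 5.60) and FAK-R454 (90.3 ± 2.41) passed the test (adjusted p = 0.654, 0.644 and 0.284 from limma).

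Gata6 measured 73.9, 79.6 and 45.2 FPKM in KMF, 52.0, 56.4 and 62.2 FPKM in the FAK KO clone and 54.9, 53.1 and 47.8 FPKM in FAK-WT cells. FAK-R454 cells had 65.4 and 71.6 FPKM, and β-catenin ΔGSK cells had 71.4, 69.3 and 68.6 FPKM. KMF sample 3 was below every other sample of the series and KMF sample 2 above every other, so the KMF mean of 66.2 ± 18.4 FPKM spans the other lines. None of the 4 steps in the order FAK-WT, FAK KO, KMF, FAK-R454 and β-catenin ΔGSK passed the test (adjusted p = 0.245, 0.442, 0.780 and 0.756 from limma). Gata6 passed at any fold as higher in β-catenin ΔGSK than in FAK-WT cells (log2 0.43, standard error 0.07, adjusted p = 0.00112) and than in FAK KO cells (log2 0.30, standard error 0.07, adjusted p = 0.00861). It also passed between FAK-WT and FAK-R454 cells (log2 -0.40, standard error 0.08, adjusted p = 0.0356). That difference did not pass without FAK-WT sample 1 or 2 (log2 -0.44 and -0.42, adjusted p = 0.0602 and 0.113). Nor did it without either FAK-R454 sample (-0.46 and -0.33, adjusted p = 0.184 and 0.286), the lone one again taken to vary as FAK-WT does. Without KMF sample 3 it also passed between KMF and FAK KO cells (log2 0.44, adjusted p = 0.00307). The median log2 difference of all tested genes on chromosome 18 was -0.36 for FAK-WT, -0.38 for β-catenin ΔGSK and -0.38 for KMF, each relative to the FAK KO clone. Centring each chromosome on its median turned the Gata6 difference between FAK-WT and FAK KO cells from -0.13 to 0.19 (adjusted p = 0.197). It moved the β-catenin ΔGSK difference from FAK KO to 0.78, and those of KMF (0.63, adjusted p = 0.0492 from limma) and of the FAK-R454 line (0.37, adjusted p = 0.0327) then passed. The difference between FAK-WT and FAK-R454 cells became -0.17 and did not pass (adjusted p = 0.309), nor did it in 1 fit of all 5 lines (adjusted p = 0.190). The chromosome's part in the Gata6 values was not tested. Gata4 and Gata6 transcripts share no word of 31 bases, and their longest identical run is 18 bases.

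Tbx2 (ENSMUSG00000000093, chromosome 11, 85832551 to 85841948, plus strand) encodes a T-box repressor known for holding back cell cycle inhibitors. Its values were 24.5, 26.3 and 16.3 FPKM in KMF, 23.3, 28.7 and 29.2 FPKM in the FAK KO clone and 56.8, 51.9 and 50.2 FPKM in FAK-WT cells. They were 45.1 and 47.7 FPKM in FAK-R454 cells and 75.2, 78.3 and 74.8 FPKM in β-catenin ΔGSK cells. The samples thus fell into a low level in KMF and FAK KO, an intermediate level in both lines that re-express FAK, and a high level in β-catenin ΔGSK, with no overlap between the 3 levels. Relative to FAK KO cells, Tbx2 was 1.96-fold higher in FAK-WT (log2 0.97, 95% interval 0.75 to 1.19, adjusted p = 2.79e-04 from limma), 1.72-fold higher in FAK-R454 (log2 0.78, 0.55 to 1.02, adjusted p = 0.00197) and 2.82-fold higher in β-catenin ΔGSK cells (log2 1.49, 1.29 to 1.70, adjusted p = 2.70e-06). Only the last reached the 2-fold threshold. FAK-WT and FAK-R454 cells differed by 0.19 on the log2 scale, with an interval of 0.02 to 0.35 and an adjusted p of 0.144 from limma. KMF cells (22.4 ± 5.36 FPKM) and FAK KO cells (27.1 ± 3.31 FPKM) did not pass the test (log2 -0.30, 95% interval -0.69 to 0.10, adjusted p = 0.176). Against KMF, Tbx2 was called higher in FAK-WT (log2 1.27, adjusted p = 0.00119), FAK-R454 (log2 1.08, adjusted p = 0.00564) and β-catenin ΔGSK cells (log2 1.79, adjusted p = 1.77e-05 from limma).

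Tbx3 (ENSMUSG00000018604, chromosome 5, 119670669 to 119684724, plus strand), the closest relative of Tbx2, was nearly absent. It had 7 fragments in all 14 libraries together, 4 of them in FAK-R454 sample 2, 1 in β-catenin ΔGSK sample 2 and 2 in β-catenin ΔGSK sample 3. The 0 fragments in FAK KO cells allow a level of up to 0.00880 FPKM (exact 95% Poisson limit, counting error only), against 27.1 FPKM of Tbx2. The most alike stretch of the 2 coding sequences is shown because it bears on whether Tbx2 fragments could have been counted as Tbx3. Each run gives 150 coding bases, 5′ to 3′ on the plus strand, from exons 2 to 3 (GRCm38, GENCODE annotation, spanning chr11:85834885-85835941 for Tbx2 and chr5:119674291-119675704 for Tbx3 with the intron left out), and capitals mark the 28 bases that differ.
Tbx2: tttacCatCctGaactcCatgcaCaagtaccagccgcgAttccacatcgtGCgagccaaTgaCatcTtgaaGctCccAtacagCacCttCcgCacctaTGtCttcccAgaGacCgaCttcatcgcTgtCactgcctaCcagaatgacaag
Tbx3: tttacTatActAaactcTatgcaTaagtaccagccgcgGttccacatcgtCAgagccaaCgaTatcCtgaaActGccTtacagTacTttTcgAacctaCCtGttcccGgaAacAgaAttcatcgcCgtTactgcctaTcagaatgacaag
Even here the differences are spread along the run. Over their whole transcripts the longest identical run is 14 bases and no word of 31 bases is shared.

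Msln (ENSMUSG00000063011, chromosome 17, 25748614 to 25754327, minus strand) encodes mesothelin, a surface protein of mesothelium and of many ovarian carcinomas that binds MUC16. Its values were 64.4, 61.9 and 72.2 FPKM in KMF, 66.2, 78.8 and 65.7 FPKM in the FAK KO clone and 94.8, 102 and 94.1 FPKM in FAK-WT cells. They were 74.4 and 74.6 FPKM in FAK-R454 and 43.2, 54.8 and 45.5 FPKM in β-catenin ΔGSK cells. The FAK-WT samples were above and the β-catenin ΔGSK samples below all samples of the other lines. Msln in FAK-WT cells was 1.39-fold above FAK KO (log2 0.47, standard error 0.08, adjusted p = 0.00364 from limma) and 1.30-fold above FAK-R454 (log2 0.38, standard error 0.06, adjusted p = 0.0184). The latter did not pass without FAK-WT sample 1 or 2 (log2 0.40 and 0.34, adjusted p = 0.0513 and 0.0786). Nor did it without either FAK-R454 sample (both log2 0.38, adjusted p = 0.183 and 0.204), when the lone sample lends no spread of its own. FAK-R454 and FAK KO cells differed by 0.09, with an interval of -0.11 to 0.29 (adjusted p = 0.478). The median log2 difference of chromosome 17 genes was 0.16 between FAK-WT and FAK KO cells, and after centring on it Msln passed at 0.36 (adjusted p = 0.0160). With that centring the difference between FAK-WT and FAK-R454 cells was 0.28 (adjusted p = 0.0638). In β-catenin ΔGSK cells Msln fell by 0.55 on the log2 scale relative to the FAK KO clone, with an adjusted p of 0.00216 from limma, and, at -1.03, was called lower than in FAK-WT cells (adjusted p = 4.86e-05). Among the markers expressed, Msln alone was lower in β-catenin ΔGSK than in FAK KO cells.

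Upk3b (ENSMUSG00000042985, chromosome 5, 136038496 to 136045303, plus strand) encodes a uroplakin-like membrane protein of mesothelial cells. In FAK KO cells it was 3.72, 5.08 and 3.27 FPKM, below every sample of every other line. KMF cells had 8.16, 8.63 and 6.96 FPKM, FAK-WT cells 7.03, 9.40 and 5.96 FPKM and β-catenin ΔGSK cells 8.68, 8.43 and 9.11 FPKM. FAK-R454 cells stood apart at 31.1 and 32.0 FPKM, against at most 9.40 FPKM in any sample of another line. Upk3b was 7.80-fold higher in FAK-R454 than in FAK KO cells (log2 2.96, 95% interval 2.60 to 3.33, adjusted p = 4.30e-05 from limma), and 0.0762% of the genes tested changed by more. It was 3.97-fold higher than in KMF cells (log2 1.99, adjusted p = 4.16e-05) and 3.58-fold higher than in the β-catenin ΔGSK line (adjusted p = 9.72e-07). Compared directly, FAK-WT cells had 4.26-fold less Upk3b than FAK-R454 cells (log2 -2.09, interval -2.53 to -1.65, adjusted p = 0.00410). This difference rests on 2 FAK-R454 samples, and with either left out its size was -2.11 or -2.07 and its adjusted p 0.0967 or 0.0992, the lone sample being assumed to vary as FAK-WT does. Relative to the FAK KO clone the level was 1.97-fold in KMF (log2 0.98, adjusted p = 0.00109), 1.83-fold in FAK-WT (log2 0.87, adjusted p = 0.00961) and 2.18-fold in β-catenin ΔGSK cells (log2 1.12, adjusted p = 2.57e-04 from limma), of which only the last was called. The neighbours FAK-WT (7.46 ± 1.76 FPKM), KMF (7.91 ± 0.860) and β-catenin ΔGSK (8.74 ± 0.345) did not pass the test (adjusted p = 0.646 and 0.216).

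The start region of Upk3b is shown because this gene has the widest range of the 6 expressed markers. The run is the 250 bases before the start site, chr5:136038246-136038495, plus strand (RefSeq, GRCm38.p6), with CpG dinucleotides in capitals.
Upk3b: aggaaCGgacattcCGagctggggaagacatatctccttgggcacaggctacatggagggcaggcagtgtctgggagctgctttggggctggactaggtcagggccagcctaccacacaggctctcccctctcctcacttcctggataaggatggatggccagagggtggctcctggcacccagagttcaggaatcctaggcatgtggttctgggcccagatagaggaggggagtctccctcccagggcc
The window of these 250 and the next 50 bases holds 2 CpG, against a median of 7 over 27025 mouse promoters. On both strands it has no match to the TCF/LEF words CTTTGAA or CTTTGAT, found in 8.77% of those promoters, to the GATA words AGATAA or TGATAA (18.95%), to the T-box word GGTGTGA (3.959%) or to the WT1 word GTGGGNG (31.29%). The GATA search left out the words AGATAG and TGATAG, which end in G in place of A, and so does the share of 18.95%. The run shown holds AGATAG, so a GATA word of that form is not excluded here. These letters are a description of this window and say nothing of the factors elsewhere. Windows were at hand for 4 of the 10 genes, Upk3b, Pax8, Muc16 and Foxl2, and the single match among them to a searched word was a WT1 word at position -226 from the start of Pax8. The Muc16 window (chr9:18674554-18674853) does not lie at the start of the gene model measured here (18495455 to 18512885, minus strand).

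**Figure D2:**
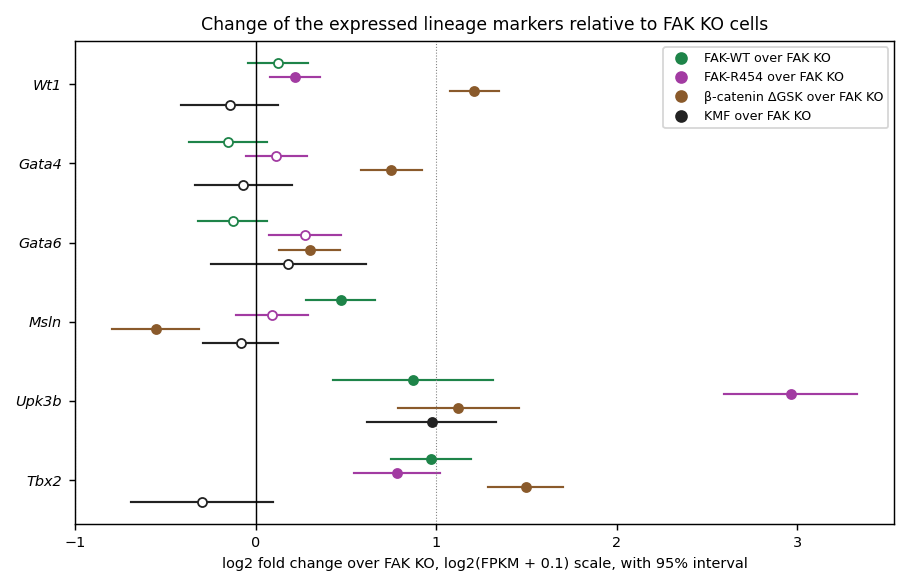
Log2 fold change over FAK KO cells (x axis, log2(FPKM + 0.1) scale) of the 6 expressed markers (y axis) in 4 lines. Points are limma estimates, lines are 95% intervals, filled points passed at an adjusted p under 0.05 and dotted lines mark a 2-fold change. Upk3b in FAK-R454 cells lies at 2.96, and Msln in β-catenin ΔGSK cells is the filled point below 0.

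Pax8, Muc16 and Foxl2 were at the edge of detection in every line. Pax8 (ENSMUSG00000026976, chromosome 2, 24420560 to 24475599, minus strand) ranged from 0.0203 to 0.198 FPKM per sample, with 128 fragments in all 14 libraries. Pooled over each line it was 0.0544 FPKM in KMF (exact 95% Poisson interval 0.0317 to 0.0871, counting error only), 0.102 in FAK KO (0.0681 to 0.146), 0.124 in FAK-WT (0.0873 to 0.171), 0.139 in FAK-R454 (0.0924 to 0.201) and 0.0603 in β-catenin ΔGSK cells (0.0352 to 0.0966). The samples of 1 line spread as widely as the lines, since FAK-WT alone ran from 3 to 18 fragments. Gm13415, annotated on the opposite strand, overlaps Pax8 by 35182 bases, and without a stated strand of the library reads of the 2 cannot be told apart. Its own level was below 0.1 FPKM in each sample.

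Muc16 (ENSMUSG00000032134, chromosome 9, 18495455 to 18512885, minus strand) had 50 fragments in all, between 0.0274 and 0.348 FPKM per sample. Both FAK-R454 samples were among the high ones, with 10 and 5 fragments, and FAK KO samples had 2, 2 and 1. The pooled intervals of these lines were 0.136 to 0.402 FPKM and 0.0186 to 0.134 FPKM (exact Poisson, counting error only). The gene model of the table is only 1035 bases long, the length of the transcript Muc16-201, whereas the longest annotated transcript has 25437 bases, so fragments from the rest of that transcript would not be in these values. Foxl2 (ENSMUSG00000050397, chromosome 9, 98955607 to 98956847, plus strand) had 3 fragments, 1 each in KMF sample 1, FAK-WT sample 3 and β-catenin ΔGSK sample 3. Its 0 fragments in FAK KO cells allow up to 0.0353 FPKM.

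**Figure D3:**
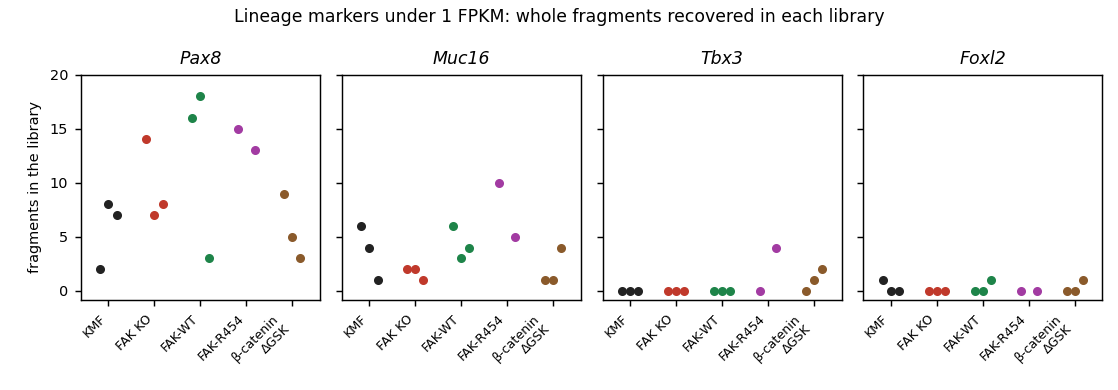
Fragments counted per library (y axis, linear) for the 4 lineage markers under 1 FPKM in the 5 lines (x axis), each point a library. Pax8 reaches 18 fragments and Muc16 10, while Tbx3 and Foxl2 are at 0 in most libraries.

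In FAK-WT cells, Tbx2, Upk3b and Msln were higher than in FAK KO cells, each by less than 2-fold. For FAK-WT relative to the FAK KO clone none of the 6 tested markers was called at 2-fold, where 2.91% of 11841 genes were called higher and 1.71% lower. At any fold 3 of 6 were higher (Tbx2, Upk3b and Msln) and none lower, against 15.6% and 25.2% of all genes. The unadjusted p was below 0.05 for 3 markers, and limma-voom on recovered fragments also called none and passed 3 at any fold. The values of the lines did not overlap for those 3 markers, as for 56.1% of all genes. The median log2 difference was 0.30 over the 6 markers and -0.08 over all genes. Tbx2 at 0.97 was close to the threshold and passed it under median-of-ratios scaling (log2 1.04).

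In FAK-R454 over FAK KO cells 1 of 6 markers, Upk3b, was called higher and none lower, against 1.93% and 0.812% of 11818 genes, and without FAK-R454 sample 2 the genes called higher were 148 in place of 228. At any fold Tbx2 and Wt1 were higher too, where 9.78% of all genes were higher and 9.89% lower. Values did not overlap for 5 of 6 markers, and for 55.1% of all genes. The medians were 0.24 over the markers and -0.03 over all genes. The FAK-WT and FAK-R454 comparisons share the FAK KO samples. In the direct comparison of FAK-WT with FAK-R454 cells, Upk3b was called lower in FAK-WT cells, where 0.747% of 11782 genes were called lower, and none was called higher (0.696% of all genes), nor by limma-voom, though 2 were higher at an unadjusted p under 0.05. At any fold Msln was higher (3.38% of all genes) and Gata6 was lower beside Upk3b (4.44%). Values of these lines did not overlap for 5 of 6 markers, and for 48.5% of all genes.

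With active β-catenin all 6 expressed markers passed the test at some fold relative to FAK KO, of which Gata6 did not pass in 1 fit of all 5 lines (log2 0.30, adjusted p = 0.110 from limma). In β-catenin ΔGSK over FAK KO cells 3 of 6, Tbx2, Wt1 and Upk3b, were called higher and none lower, against 5.13% and 6.99% of 11915 genes. At any fold 5 of 6 were higher and Msln was lower, against 23.7% and 34.4% of all genes. The 2 lines did not overlap for any of the 6 markers, as for 64.2% of all genes, and the medians were 0.94 over the markers and -0.09 over all genes. Upk3b was just under 2-fold with a pseudocount of 1 (log2 0.97) or without FAK KO sample 3 (log2 0.99).

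Between parental KMF and its FAK KO clone a single marker, Upk3b, passed the test. None of the 6 was called, against 3.97% of 11893 genes higher and 4.04% lower, and Upk3b alone passed at any fold, higher in KMF, where 23.1% of all genes were higher and 28.7% lower. It was also the single marker with an unadjusted p under 0.05, and limma-voom called none. Upk3b alone of the 6 had values that did not overlap, where 60.8% of all genes did not. The estimates of the other 5 markers ran from -0.30 for Tbx2 to 0.18 for Gata6. KMF sample 3 was the lowest of its line for Wt1, Gata4, Gata6, Tbx2 and Upk3b and the highest for Msln, and without it the signs of Wt1 (0.01) and Gata4 (0.07) turned, neither passing the test.

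The lines were also set against each other without FAK KO. In β-catenin ΔGSK over FAK-WT cells Wt1 was called higher and Msln lower, where 4.48% and 7.17% of all genes were called. At any fold Gata4 (log2 0.90), Tbx2 (0.52) and Gata6 (0.43) were higher there too, where 24.4% of all genes were higher and 26.4% lower. Against FAK-R454 cells, β-catenin ΔGSK cells had Upk3b lower (7.17% of all genes) and no marker called higher (4.21%), though 3 were higher at any fold (21.2% of all genes), Wt1 by 0.99, Tbx2 by 0.71 and Gata4 by 0.64 on the log2 scale, and Msln was lower beside Upk3b (-0.65, with 27.7% of all genes lower at any fold). Wt1 at 0.99 was just under the threshold of a call, and no alternative setting was run for this comparison. Relative to KMF, Tbx2 was called higher in FAK-WT cells (3.82% of all genes), Tbx2 and Upk3b in FAK-R454 cells (4.28%) and Tbx2 and Wt1 in β-catenin ΔGSK cells (5.96%). No marker was called lower than in KMF, against 2.11%, 2.49% and 7.17% of all genes. Under 2-fold, Msln passed as higher than in KMF in FAK-WT cells (log2 0.56, adjusted p = 0.00110 from limma), where 18.2% of all genes were higher and 23.5% lower at any fold. In FAK-R454 cells the passes at any fold were the 2 calls (22.5% of all genes were higher and 21.2% lower). In the β-catenin ΔGSK line Gata4 passed as higher (0.82, adjusted p = 4.05e-04) and Msln as lower (-0.47, adjusted p = 0.00384), where 25.1% of all genes were higher and 31.8% lower.

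The start sites of the expressed markers Wt1, Gata6 and Tbx2 each lie beside that of a noncoding transcript on the opposite strand, and 9 annotated genes in all overlap one of the 10 markers or lie within 5 kb of one. Wt1os starts 19 bases from Wt1. It was 3.48, 3.22 and 3.42 FPKM in the FAK KO clone and 4.32, 5.25 and 5.00 FPKM in β-catenin ΔGSK cells, higher by 0.51 on the log2 scale (adjusted p = 0.00299 from limma), against 1.21 for Wt1. The transcript 2610027K06Rik starts 328 bases from Tbx2. It rose from 1.04 to 1.91 FPKM between the same lines (log2 0.84, adjusted p = 0.00842), but at 1.11 and 1.04 FPKM in FAK-WT and FAK-R454 cells it did not pass the test there (log2 0.10 and 0.02, adjusted p = 0.736 and 0.952), where Tbx2 passed at 0.97 and 0.78. The transcript 1010001N08Rik overlaps the start of Gata6 by 58 bases. It was 1.89, 1.68 and 2.05 FPKM in the FAK KO clone and 0.920, 1.00 and 0.356 FPKM in FAK-WT cells (log2 -1.30, adjusted p = 0.0140 from limma). With a mean of 0.760 FPKM in FAK-WT cells it entered this test only through the FAK KO clone, so that its call adds no support. Neither its difference from Gata6 nor that of the other pairs was tested. The remaining neighbours, Mslnl, Gm13415, Gm11444, Foxl2os, Tbx3os1 and Tbx3os2, were under 1 FPKM in every line, and the last 2 had no fragment in any library. Of these, Foxl2os starts 308 bases from Foxl2 and Tbx3os1 696 bases from Tbx3, both on the opposite strand.

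**Figure D4:**
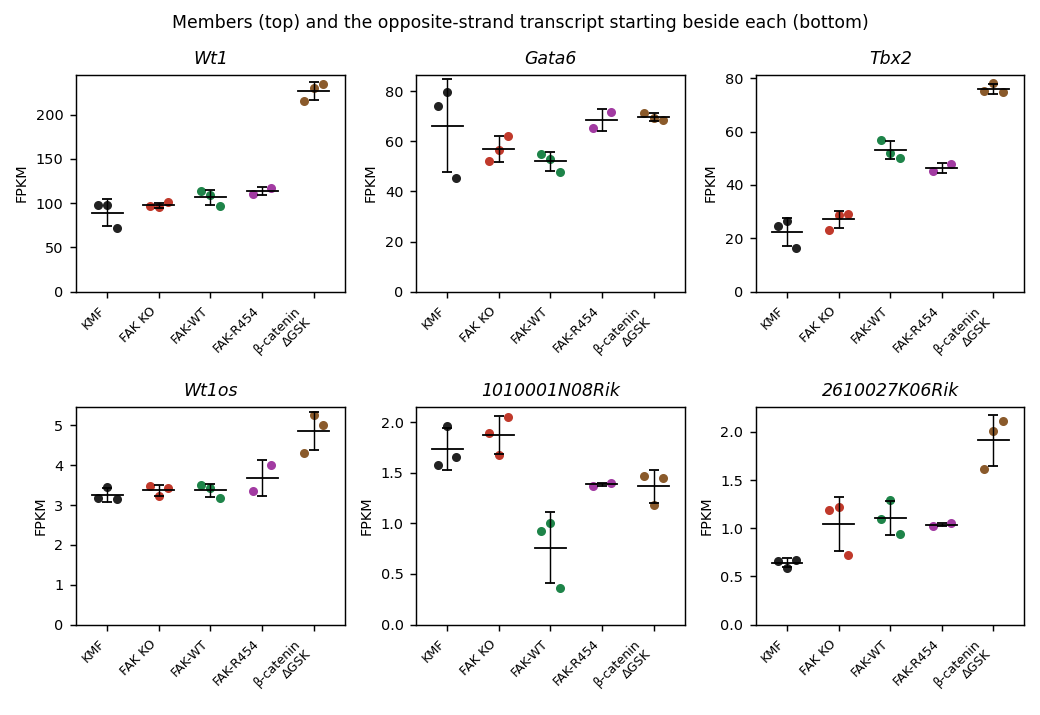
FPKM (y axes, linear, from 0, a scale for each panel) of Wt1, Gata6 and Tbx2 (top) and of the opposite-strand transcript that starts beside each (bottom) in the 5 lines, with samples as points, line means as bars and SD as error bars. Wt1os and 2610027K06Rik are highest in β-catenin ΔGSK cells, and 1010001N08Rik is lowest in FAK-WT cells, where Gata6 is near its FAK KO level.

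Other mesothelial genes were expressed unevenly. A list of 19 had 16 genes above 1 FPKM in some line, led by the keratins Krt8, Krt18 and Krt19 at 317, 218 and 441 FPKM in FAK KO cells, while calretinin (Calb2) reached at most a mean of 0.00742 FPKM and Krt7 0.334 FPKM. Of the markers that define mesothelium, Wt1, Msln and these keratins were thus abundant in FAK KO cells, and Calb2 was at or near 0. Upk3b was at most a mean of 8.74 FPKM outside FAK-R454 cells, where it was 31.6 FPKM. Also under 1 FPKM in FAK KO cells were Nkain4 (0.548), Aldh1a2 (0.527), Lrrn4 (0.262), Krt7 (0.257), Bnc1 (0.236), Rspo1 (0.199) and Cldn15 (0.148 FPKM). A list gene at or below 1 FPKM in one of the lines compared entered the test only through the other line and had to differ to be tested, so that its call adds no support, and such genes are named as they come. In FAK-R454 over FAK KO cells 4 of 15 tested were called higher and none lower, where 1.93% and 0.812% of all genes were. These were Cldn15 (log2 2.51), Nkain4 (2.25), Bnc1 (2.20) and Lrrn4 (1.80), and all 4 entered only through FAK-R454 cells. At any fold 7 were higher, these 4 included (9.78% of all genes), and 1 lower (9.89%). Basonuclin 1 (Bnc1) is a zinc finger factor of mesothelium, and Cldn15 is a tight junction claudin. Cldn15 was 0.0349, 0.222 and 0.188 FPKM in the FAK KO clone and 1.12 and 1.34 FPKM in FAK-R454 cells, and Bnc1 was 0.250, 0.280 and 0.177 FPKM against 1.46 and 1.40 FPKM. In FAK-WT cells the means of Cldn15, Bnc1 and Lrrn4 were 0.319, 0.400 and 0.332 FPKM, against 1.23, 1.43 and 1.14 FPKM in FAK-R454 cells, so they entered the comparison of these lines only through FAK-R454 too. Dmkn was called higher in FAK-WT in that comparison (1.43, adjusted p = 0.00372 from limma), where 0.696% of all genes were. For FAK-WT against FAK KO 2 of 13 were called higher (2.91% of all genes), Dmkn (1.36) and Nkain4 (1.18), and Nkain4, at 0.548 FPKM in the FAK KO clone, entered only through FAK-WT. At any fold 9 were higher (15.6% of all genes), with Aldh1a2 also entering only through FAK-WT, and 2 lower (25.2%), podocalyxin (Podxl, -0.98) and Gpm6a (-0.76).

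In β-catenin ΔGSK over FAK KO cells 3 of 14 were called higher (5.13% of all genes), Bnc1 (log2 2.64), Nkain4 (2.43) and Aldh1a2 (1.95), the last encoding a retinoic acid synthesising enzyme. Their FAK KO means were 0.236, 0.548 and 0.527 FPKM, so all 3 entered only through β-catenin ΔGSK. Called lower were 2 of 14 (6.99% of all genes), Anxa8 (-1.29) and podoplanin (Pdpn, -1.26), both above 1 FPKM in either line. At any fold 6 were higher, these 3 included, and 4 lower, against 23.7% and 34.4% of all genes. Krt8, at 181 FPKM in β-catenin ΔGSK and 317 FPKM in FAK KO cells, was not called. Against FAK-WT cells, where it was 569 FPKM, Krt8 was called lower in β-catenin ΔGSK cells (7.17% of all genes). In KMF over FAK KO cells 2 of 13 were called higher (3.97% of all genes), Nkain4 (2.02), which entered only through KMF, and Dmkn (1.48). At any fold 7 of 13 were higher (23.1% of all genes), Nkain4 and Aldh1a2 entering only through KMF, and 2 lower (28.7%).

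**Figure D5:**
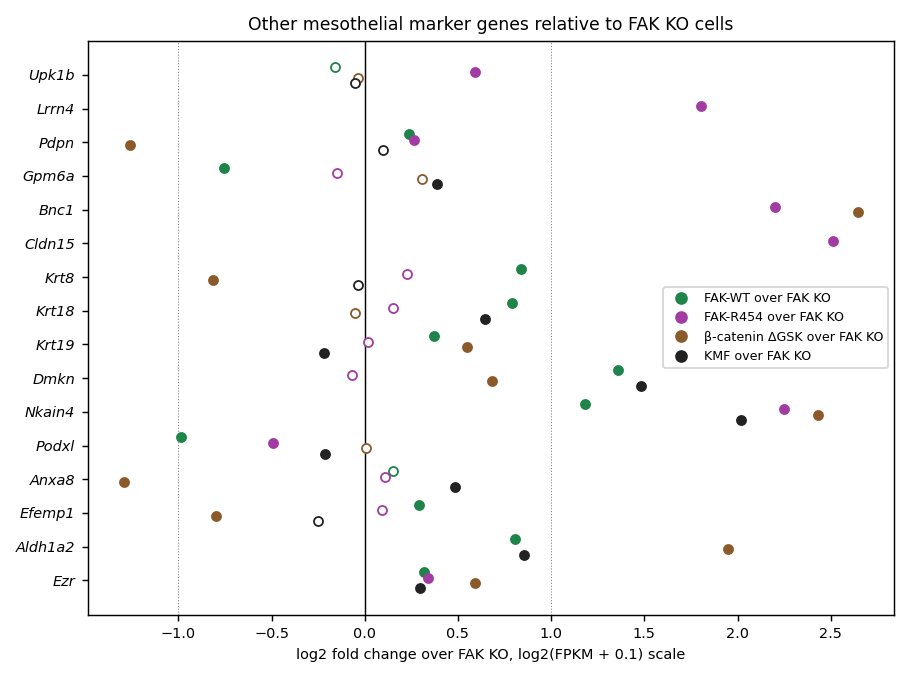
Log2 fold change over FAK KO cells (x axis, log2(FPKM + 0.1) scale) of the genes of the mesothelial list that were tested (y axis) in 4 lines. Filled points passed at an adjusted p under 0.05 in limma and dotted lines mark a 2-fold change. Cldn15, Nkain4, Bnc1 and Lrrn4 lie beyond it in FAK-R454 cells, and Bnc1, Nkain4 and Aldh1a2 in β-catenin ΔGSK cells. Each of these was under 1 FPKM in FAK KO cells and entered only through the other line, so that its place adds no support. Pdpn and Anxa8 lie below -1 in β-catenin ΔGSK cells.

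Of 16 Müllerian epithelial genes, in whose tissue Pax8 is typical, 4 were above 1 FPKM in some line. Cldn3 was 63.6 FPKM in the FAK KO clone and 22.1 FPKM in KMF cells and was called lower in KMF (log2 -1.56, where 4.04% of all genes were), as was the cilia factor Foxj1 (-1.66), which entered only through FAK KO. In β-catenin ΔGSK cells Foxj1 was called lower (-1.49, 6.99% of all genes), again entering only through FAK KO, and Emx2, a homeobox gene of the urogenital ridge, was called higher (4.40, 5.13% of all genes) at 2.28 FPKM against 0.0126 FPKM, entering only through β-catenin ΔGSK. None of 3 tested was called in FAK-WT or FAK-R454 relative to FAK KO, where at any fold 1 was higher (15.6% of all genes) and 2 were lower (9.89%), respectively. Pax2, Sox17, Pgr and Cldn4 stayed at or below a mean of 0.0200 FPKM in all lines.

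Of 18 granulosa and steroidogenic genes, the setting of Foxl2, 9 were above 1 FPKM in some line. Nr5a1, which encodes the steroidogenic factor SF1, was between 31.7 and 49.9 FPKM in line means, Amhr2, the receptor of anti-Müllerian hormone, between 83.8 and 422 FPKM, and Star between 17.0 and 43.7 FPKM. Fshr, Lhcgr, Cyp19a1 and Nr0b1 were at 0 in all libraries. In β-catenin ΔGSK over FAK KO cells 3 of 9 were called higher (5.13% of all genes), Fst (log2 3.40), Amhr2 (1.66) and Hsd17b1 (1.30), and 2 lower (6.99%), Inhba (-2.33) and Inhbb (-2.23). Hsd17b1, at 0.441 FPKM in the FAK KO clone, entered only through β-catenin ΔGSK. Fst encodes follistatin, which binds the activins made of the subunits that Inhba and Inhbb encode. In KMF over FAK KO cells 1 of 8 was called higher (3.97% of all genes), Inhbb (1.06), and 2 lower (4.04%), Star (-1.36) and Inhba (-1.24). None of 8 was called in FAK-WT relative to FAK KO, where 2 were higher and 5 lower at any fold (15.6% and 25.2% of all genes), or in FAK-R454, where 3 were higher and 2 lower (9.78% and 9.89%). Fst was called higher in FAK-WT when set against FAK-R454 (1.12, where 0.696% of all genes were). Of 7 testis genes 4 were tested. Ptgds, a prostaglandin D synthase, was called higher in FAK-WT (4.41, 2.91% of all genes) and FAK-R454 cells (2.63, 1.93%). Ptgds was also called higher in FAK-WT when set against FAK-R454 (62.2 against 17.6 FPKM, where 0.696% of all genes were). It was called lower in β-catenin ΔGSK cells (-3.69), as was Cyp26b1 (-2.71), where 6.99% of all genes were, both entering that comparison only through FAK KO. None was called in KMF cells, where 2 were higher and 2 lower at any fold (23.1% and 28.7% of all genes).

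Among 13 coelomic and gonadal ridge factors Bnc1 was called higher in FAK-R454 cells (1.93% of all genes), and in β-catenin ΔGSK cells Emx2 and Bnc1 were called higher (5.13%), each entering only through the line where it is high. None was called in FAK-WT, where 1 was higher and 2 lower at any fold (15.6% and 25.2% of all genes), or in KMF, where 2 were higher and 1 lower (23.1% and 28.7%). Of the other 15 T-box genes, 3 were above 1 FPKM in some line (Tbx15, Tbx18 and Mga), and none was called relative to FAK KO in any of the 4 lines. At any fold 1 was lower in FAK-WT (25.2% of all genes), 1 higher in FAK-R454 (9.78%) and 2 higher in KMF cells (23.1%). Of 6 other GATA genes and cofactors, Gata3 (2.86) and Gata2 (1.54) were called higher in the β-catenin ΔGSK line (5.13% of all genes), and Gata5 (4.34), Gata2 (2.48) and Zfpm1 (1.10), which encodes a GATA cofactor, in KMF cells (3.97%). Gata3, Gata2 and Gata5 had FAK KO means of 0.686, 0.583 and 0.0208 FPKM and entered only through the line where they are high. None was called in FAK-WT or FAK-R454 cells, where 1 each was higher at any fold (15.6% and 9.78% of all genes). Of 9 genes linked to WT1, 6 were tested in the β-catenin ΔGSK comparison and 4 called higher (5.13% of all genes), Wnt4 (4.14), Aldh1a2 (1.95), Amhr2 (1.66) and Gas1 (1.60), and Spry1 lower (-1.21, where 6.99% of all genes were), and of these Aldh1a2 entered only through β-catenin ΔGSK. Wnt4, a signal of ovarian development, was 13.0, 14.2 and 14.2 FPKM in the FAK KO clone and 241, 239 and 256 FPKM in β-catenin ΔGSK cells. Gas1 was also called higher in FAK-WT (1.60, 2.91% of all genes) and FAK-R454 cells (1.27, 1.93%), and Wnt4 in the direct comparison of FAK-WT with FAK-R454 cells (1.51, 0.696%). None was called in KMF cells, where 4 were higher and 2 lower at any fold (23.1% and 28.7% of all genes). Of 5 genes known to be repressed by TBX2 or TBX3, 3 were tested, and Ndrg1 was called higher in all 4 lines over FAK KO (KMF 1.93, FAK-WT 2.28, FAK-R454 1.62, β-catenin ΔGSK 1.73, where 3.97%, 2.91%, 1.93% and 5.13% of all genes were), while Cdkn2a was at 0 in all libraries. Cdkn1a, which encodes the cell cycle inhibitor p21, had a mean of 105 FPKM in the FAK KO clone, 108 in KMF, 122 in FAK-WT, 77.8 in FAK-R454 and 78.1 FPKM in β-catenin ΔGSK cells. It passed as higher in FAK-WT (log2 0.22, adjusted p = 0.0328 from limma) and as lower in FAK-R454 (-0.43, adjusted p = 0.00552) and β-catenin ΔGSK cells (-0.43, adjusted p = 0.00314), each under 2-fold.

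Markers of other cell types moved with the lines in part. Of 8 fibroblast genes 4 were tested, and Col1a1 (log2 2.70 and 2.86), Col3a1 (2.36 and 1.79) and Pdgfra (1.72 and 1.53) were called higher in FAK-WT and FAK-R454 cells (2.91% and 1.93% of all genes), while Col3a1 (-4.28), Col1a1 (-2.28), Pdgfra (-1.77) and Dcn (-1.36) were called lower in the β-catenin ΔGSK line (6.99% of all genes), the first 3 entering only through FAK KO. In KMF cells Col3a1 (2.61) and Pdgfra (1.55) were called higher (3.97%) and Dcn (-1.57) lower (4.04%). The summed list ran from 81.1 to 101 FPKM in KMF, 96.7 to 136 in FAK KO, 146 to 158 in FAK-R454, 156 to 185 in FAK-WT and 31.1 to 45.3 FPKM in β-catenin ΔGSK samples, with Col1a2, Lum, Thy1 and Postn at or near 0 (means of 0.0171 FPKM or less). Of 8 macrophage genes 2 were tested, with Cd68 called higher in FAK-WT (1.44, 2.91% of all genes) and lower in β-catenin ΔGSK cells (-1.16, 6.99%). Their sum was between 4.04 and 16.7 FPKM in all samples, and Ptprc and Itgam were at a mean of 0.00762 FPKM or less. Of 7 endothelial genes 2 were tested, and Pecam1 (-1.58) and Tek (-1.35) were called lower in the β-catenin ΔGSK line (6.99% of all genes), Pecam1 entering only through FAK KO, the sum being between 6.72 and 30.0 FPKM and Kdr at or near 0. The part of these genes in the marker results was not tested.

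The genes whose pattern over the 14 samples was most like that of each marker were found by Pearson's r of log2(FPKM + 0.1) among 12256 genes, as a description, since samples of a line share their source and β-catenin ΔGSK cells stand apart. For Wt1 they were Kcnd2 (r = 0.985), Pak6 (0.981) and Vgll4 (0.981). For Gata4 they were Mtfp1 (0.990), Fam120a (0.977) and Pard6b (0.977), and for Gata6 Usp21 (0.881), Scap (0.876) and Adnp (0.864). For Tbx2 they were Mtss1 (0.971), Apcdd1 (0.971) and Abr (0.970). Msln was most like Rps19bp1 (0.980), Krt8 (0.969) and Ctsd (0.966). Upk3b was most like Mical2 (0.910), Unc45b (0.888) and Eln (0.887), of which Eln was 0.390 FPKM in the FAK KO clone and 4.16 FPKM in FAK-R454 cells. With Spearman's rho, 5 of these 18 genes were among the 3 most alike.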

How the data were processed

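RNA was sequenced as poly(A)-selected paired-end libraries. The authors deposited FPKM per gene. The study's methods name TopHat2 for mapping, while the submitters' processing notes name STAR 2.5, CASAVA 1.8, DESeq2 and mm10. Which mapper made the FPKM table is not settled here, and the strand setting is not given in the sources used here. The FPKM table has 3 samples per line and 2 of FAK-R454, although the study describes 3 for that line too, and the other is not analysed here. Multiplied by gene length, 100% of values in each library were whole multiples of a common unit, that of a single fragment (tolerance 0.01), which gave the depth.

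Each pair of lines was compared with limma 3.58.1 (R 4.3.3, moderated variance with a trend) on log2(FPKM + 0.1), a scale that understates the change of low genes. Genes with a mean above 1 FPKM in at least 1 line entered, and p-values were adjusted by Benjamini-Hochberg over all of them. The scripts were tested on simulated data. Named genes are the 10 markers, called genes of the lists (up to 4 per list and comparison), the 3 most alike genes, neighbours within 5 kb, and Ptk2 and Ctnnb1. Added after their values were seen were Pdpn, Hsd17b1 and Spry1, each the fifth of a count of 5, and the genes given for their level alone. A gene of the coelomic list is not reported here. Markers and lists were chosen with earlier results of these data known. Alternatives were other pseudocounts, filters and scalings, voom on recovered fragments, a block, 1 fit of all lines, centring by chromosome and leaving out samples.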

Additional observations from a re-analysis of the deposited data

Results flagged for a closer look

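Among the 3 lines made from FAK KO cells, a marker's effect relative to FAK KO differed between 2 lines in 4 results by a call (adjusted p under 0.05 and at least 2-fold) in the direct limma comparison of those lines, which is the test of that difference since both share the FAK KO samples. Smaller differences and those from KMF are in the report. Upk3b differed between FAK-WT and FAK-R454 cells by -2.09 on the log2 scale, a level 4.26-fold lower in FAK-WT cells. It differed between β-catenin ΔGSK and FAK-R454 cells by -1.84, with all 3 β-catenin ΔGSK samples under both FAK-R454 samples. Wt1 differed between β-catenin ΔGSK and FAK-WT cells by 1.09, and Msln differed between these lines by -1.03, so that the 2 markers lie in opposite directions in 3 of 3 samples each. Both values are close to the 2-fold threshold, and no alternative setting was run for this comparison. The causes were not tested. FAK-R454 is represented by 2 samples.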

How the results depend on the processing

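Alternatives were run for the comparisons with FAK KO and for FAK-WT over FAK-R454 cells only. Of 330 estimates for single markers under alternative settings, 309 kept their direction and their side of the threshold, 9 gained and 10 lost the test, and 2 reversed. Of 168 with 1 sample left out, 146 kept both, 6 gained, 13 lost and 3 reversed. The reversals were those of Gata6 in FAK-WT over FAK KO (0.19) and Gata4 in KMF over FAK KO cells (0.019) with chromosomes centred, of Wt1 (0.0061) and Gata4 (0.074) in KMF over FAK KO cells without KMF sample 3, and of Msln there (0.0023) without FAK KO sample 2. With 1 sample left out these ranged from -0.22 to 0.0061, -0.15 to 0.074 and -0.15 to 0.0023. None of the 5 passed the test in the main or the reversed direction. Median-of-ratios scaling moved all genes by 0.11 in β-catenin ΔGSK over FAK KO cells and turned no direction.

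In FAK-WT over FAK KO cells, 1 marker was called higher with median-of-ratios scaling or centred chromosomes (Tbx2), and 0 to 2 with 1 sample left out (Tbx2 and Upk3b without FAK KO sample 2 or FAK-WT sample 3, Tbx2 without FAK KO sample 3). In FAK-R454 over FAK KO cells 2 to 5 were higher at any fold with 1 left out, 5 without FAK KO sample 2. In KMF over FAK KO cells 1 was called higher with median-of-ratios scaling or centred chromosomes (Upk3b), 0 to 1 with 1 sample left out (Upk3b without KMF sample 3 or FAK KO sample 2), and with chromosomes centred 2 were higher and 1 lower at any fold. With 1 left out 1 to 2 were higher at any fold, Gata6 joining Upk3b without KMF sample 3. In FAK-WT over FAK-R454 cells 1 was lower at any fold without the FPKM filter, without the trend, in 1 fit of all lines or with chromosomes centred, which also left 0 higher. With 1 left out 0 to 2 were higher and 0 to 3 lower at any fold, and 0 to 1 called lower, 0 without either FAK-R454 sample. Gata6 lost the test in β-catenin ΔGSK over FAK KO cells in 1 fit of all lines (adjusted p = 0.110 from limma). The cause was not tested.

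The sample numbers did not pair the samples, since deviations of same-numbered samples had mean correlations from -0.10 to 0.27 across genes. With the replicate block, 2 markers were higher at any fold in FAK-WT over FAK-R454 cells (Tbx2 joining Msln, 0.23), Gata4 was lower (-0.17), and in FAK-R454 over FAK KO cells Gata6 passed (0.34, adjusted p = 0.0367 from limma) and Wt1 did not (0.24, adjusted p = 0.175). Sample 3 has no partner in FAK-R454 and drops out of these blocked fits. In the comparisons run with it, the block changed no other call of a marker. A pseudocount of 1 lowered the calls over all genes relative to FAK KO, from 344 to 174 higher and 203 to 99 lower in FAK-WT, 228 to 108 and 96 to 37 in FAK-R454, 472 to 274 and 481 to 292 in KMF, and from 833 to 535 lower in β-catenin ΔGSK cells. In FAK-WT over FAK-R454 cells it lowered them from 82 to 26 higher and 88 to 50 lower, a filter at 2 FPKM left 54 higher, and with 1 sample left out they were 4 to 109 higher and 3 to 111 lower. Levels of 45 of 50 marker and line means moved by no more than 1 SD under the other scaling. The 50 include the low means of Pax8, Muc16, Tbx3 and Foxl2. Those of Tbx3 and Foxl2 that are 0 could not move. The few fragments of Tbx3, Foxl2, Muc16 and Pax8 limit how finely their levels could be told apart between lines.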
